A study of Homo sapiens with 21 samples.

Results

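The genes described are 45 components of mitosis and of the spindle checkpoint, among 19775 genes that could be read on the arrays. They were taken by name from a fixed list. It held the cyclins and kinases of mitotic entry, checkpoint and kinetochore proteins, and spindle and cytokinesis proteins. It also held an activator, ubiquitin-conjugating enzymes and a substrate of the anaphase-promoting complex, separase, TOP2A, and the transcription factors FOXM1 and MYBL2. All 45 were measured by at least 1 probe set paired with exactly 1 gene symbol, and each gene was read at whichever such probe set had the highest average signal in that line. No filter on low values was applied, so no member was lost.

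RNA was measured on 21 Affymetrix HG-U133 Plus 2.0 arrays in 7 groups of 3 biological replicates. A549 cells, a lung adenocarcinoma line, received a control siRNA or an siRNA against APE1, the enzyme of DNA base excision repair and transcriptional coregulator that the gene APEX1 encodes. Each kind of transfection was left without or given trichostatin A (TSA), an inhibitor of histone deacetylases, at 100 ng/ml for 4 hours before harvest. BEAS-2B cells, a bronchial epithelial line, were transfected with plasmids for wild-type APE1 (WT), for K6R/K7R APE1 (RR), in which the lysines at positions 6 and 7 are replaced by arginine, or for APE1 without its first 42 residues (ND42, NΔ42 in the study). Transfection was transient in all groups and the labels give the harvest at 48 hours, whereas the methods give a later time for the siRNA experiments. A single siRNA against APE1 was used on the arrays, so on them off-target effects cannot be told apart from those of losing APE1. For CCNA2 the study also used RT-PCR after this siRNA and another siRNA against APE1. It reported similar patterns with both and took CCNA2 to be regulated by APE1. All BEAS-2B groups overexpressed an APE1 protein and kept their own APEX1 gene, and there was no group with an empty plasmid.

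Cells enter mitosis when cyclin B bound to CDK1 is freed of inhibitory phosphates by the CDC25 phosphatases, with PLK1 and the Aurora kinases acting beside it. Kinetochores that are not attached to the spindle keep the checkpoint proteins BUB1, BUB1B, BUB3, MAD2L1 and TTK active, which hold back CDC20 and the anaphase-promoting complex until all chromosomes are attached. The transcripts of most of these proteins rise late in the cell cycle under the control of the MuvB complexes with MYBL2 and FOXM1, and bulk RNA therefore reads both the level in each cell and the share of cells near mitosis. Fewer cells in that stage and less RNA per cell cannot be told apart on these arrays.

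The promoters of these genes are known for a CHR element, with the letters TTTGAA, and for CCAAT boxes, which the factor NF-Y binds. RefSeq promoter windows of GRCh38.p14, from 250 bases before to 50 bases after a start, were matched for 38 of the 45 genes and were not matched for AURKA, BUB3, TTK, UBE2C, BIRC5, TPX2 and FOXM1. TTTGAA stood on either strand in a window of 27 of the 38 genes, or 71.1%, against 18.2% of all 27305 genes with a window. CCAAT stood in 31 of 38, or 81.6%, against 39.7% of all genes, and both sets of letters in 22 of 38, or 57.9%, against 7.26%. The rarer form TTCGAA was found in 3 of 38 genes (7.89%, against 1.82%) and the E2F letters TTTCGCGC or TTTGGCGC in 2 of 38 (5.26%, against 1.4%). None of these motifs contains another. A match describes letters and is not evidence of binding.

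The 150 bases before the start are shown for 6 genes with 1 annotated start, chosen because PLK1, CCNA2, TOP2A and CENPA were lower with TSA after either siRNA, CDC20 was lower in both cell lines, and CKS2 was the member that was higher with TSA after either siRNA. Capitals mark TTTGAA and CCAAT, or TTCAAA and ATTGG where the letters lie on the opposite strand. The stretches are written 5′ to 3′ in the direction of the gene: PLK1 at chr16:23678739-23678888 (plus strand), CCNA2 at chr4:121823884-121824033 (minus strand), TOP2A at chr17:40417897-40418046 (minus strand), CENPA at chr2:26785906-26786055 (plus strand), CDC20 at chr1:43358831-43358980 (plus strand) and CKS2 at chr9:89311045-89311194 (plus strand).
PLK1: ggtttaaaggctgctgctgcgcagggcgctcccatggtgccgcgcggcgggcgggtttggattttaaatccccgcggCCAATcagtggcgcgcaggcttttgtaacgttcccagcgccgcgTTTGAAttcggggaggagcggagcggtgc
CCNA2: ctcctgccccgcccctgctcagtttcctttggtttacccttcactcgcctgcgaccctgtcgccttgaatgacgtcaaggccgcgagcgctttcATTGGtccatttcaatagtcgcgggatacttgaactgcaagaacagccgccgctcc
TOP2A: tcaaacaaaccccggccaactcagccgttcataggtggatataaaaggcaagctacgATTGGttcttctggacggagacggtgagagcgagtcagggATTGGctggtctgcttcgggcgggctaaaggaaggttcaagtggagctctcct
CENPA: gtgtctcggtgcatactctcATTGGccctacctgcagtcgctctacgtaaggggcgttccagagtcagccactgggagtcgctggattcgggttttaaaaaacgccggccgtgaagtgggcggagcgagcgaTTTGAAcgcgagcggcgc
CDC20: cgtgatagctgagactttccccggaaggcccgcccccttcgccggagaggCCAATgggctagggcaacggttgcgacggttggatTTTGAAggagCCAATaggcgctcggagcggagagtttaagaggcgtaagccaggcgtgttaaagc
CKS2: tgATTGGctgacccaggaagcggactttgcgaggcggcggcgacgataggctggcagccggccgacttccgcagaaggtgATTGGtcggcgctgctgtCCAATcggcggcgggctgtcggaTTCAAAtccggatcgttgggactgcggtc

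In CDC20 the TTTGAA letters began 65 bases before the start between CCAAT boxes at 100 and 55 bases, whereas in PLK1 they began at 29 bases with the CCAAT box upstream at 73 bases. CKS2 held TTTGAA on the opposite strand at 29 bases and CCAAT letters at 3 places. The stretches of CCNA2 and TOP2A held CCAAT letters only, and the TTTGAA of TOP2A lay elsewhere in its 300-base window.

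Values are the deposited log2 values, and a gene was called when its Benjamini-Hochberg adjusted p in limma, taken over 54613 probe sets, was under 0.05 and its difference was at least 0.32 on the log2 scale in either direction. Differences are on the log2 scale, each with its standard error (SE). The array of A549 APE1 siRNA replicate 2 stood apart. Its ACTB signal was 6.08 log2 higher at the 3′ than at the 5′ probe set, against 0.13 to 1.05 on the other 11 A549 arrays, and counts of called genes in A549 cells are given with and without it. Smaller 3′ excesses also moved with the groups: GAPDH was 0.03 to 0.16 log2 higher at its 3′ probe set on the control siRNA arrays, 0.57 and 0.60 on APE1 siRNA replicates 1 and 3 and 2.06 on replicate 2, and with TSA it was 0.04 to 0.12 after control siRNA and 0.47 to 0.71 after APE1 siRNA. Their part in the siRNA results was not tested. APEX1 was 12.14 to 12.24 on the control siRNA arrays and 8.43 to 10.18 on the APE1 siRNA arrays, and with TSA it was 11.77 to 11.85 and 9.53 to 9.55. In BEAS-2B cells APEX1 was 10.85, 11.02 and 10.09 with WT, 10.61 to 10.68 with RR and 10.39 to 10.57 with ND42. WT replicate 3 was thus the lowest BEAS-2B array for APEX1, and the part of this in the mutant results was not tested. Among epithelial markers, KRT18 had group means of 10.91 to 11.39 in A549 and 11.55 to 11.60 in BEAS-2B cells, whereas EPCAM was at 4.70 to 4.91 and 5.42 to 5.60 and CDH1 at 5.34 to 5.46 and 5.54 to 6.70. The files hold no detection calls, so whether such values are above background was not tested. Of the leukocyte genes PTPRC was at 4.58 to 4.73 and 4.19 to 4.33. ITGAM was at 6.24 to 6.39 and 5.85 to 6.004, and CD3E at 7.39 to 7.77 and 6.05 to 6.398. Of the endothelial genes CDH5 was the lowest in A549 cells, at 4.26 to 4.402, and TEK the highest, at 7.903 to 8.11. In BEAS-2B cells CDH5 was at 4.23 to 4.38 and TEK at 6.68 to 6.91. The fibroblast gene COL1A1 had group means of 10.21 to 10.54 in A549 and 11.79 to 12.96 in BEAS-2B cells. The cell lines were normalized separately, so their levels are not compared.

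Over all 45 genes, the median deviation of each array from the mean of its reference group showed 3 patterns. The 3 arrays of control siRNA with TSA had medians of -0.48, -0.50 and -0.44, and those of APE1 siRNA with TSA had -0.32, -0.33 and -0.35, all against control siRNA without TSA. The APE1 siRNA arrays without TSA had -0.07, -0.62 and -0.02, so that replicate 2 alone was far below. On that array 27 of the 45 members, and 25.2% of all genes, lay more than 0.5 log2 below the control mean. In BEAS-2B cells no RR or ND42 array had a median further than 0.11 from the WT mean.

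**Figure D1:**
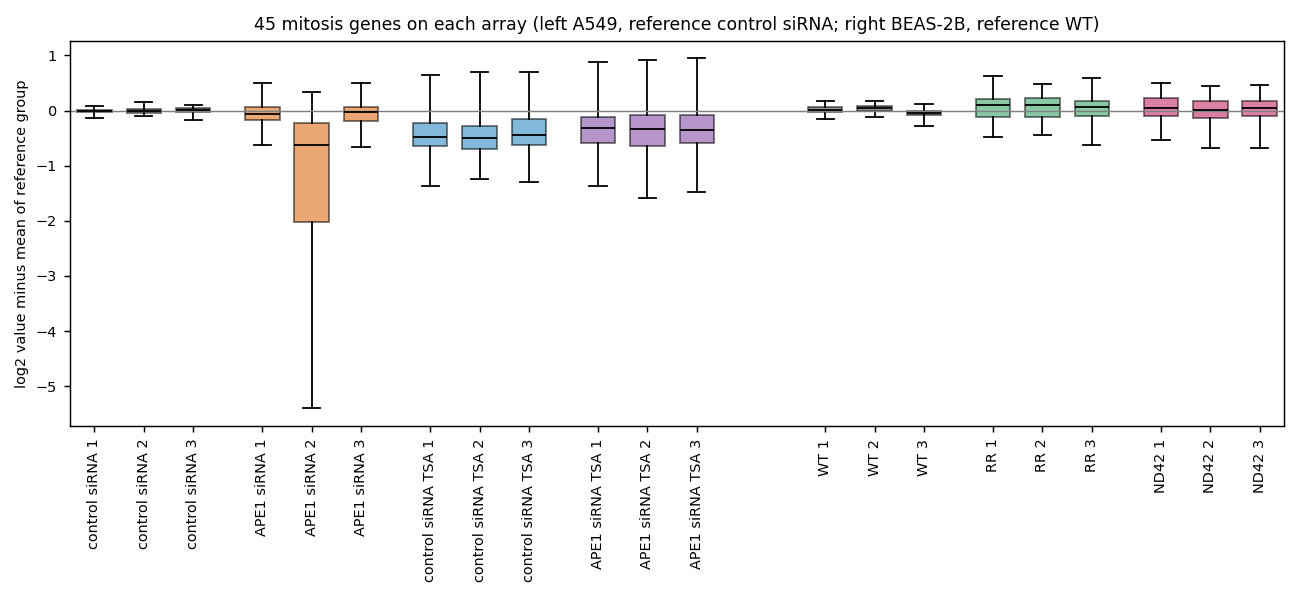
Deviation of the 45 genes from the mean of the reference group on each array (y axis, log2), with A549 arrays on the left and BEAS-2B arrays on the right. Boxes span the quartiles with the median as a line and whiskers reach the lowest and highest gene. The 6 TSA arrays have medians of -0.32 to -0.50, and APE1 siRNA replicate 2 has a median of -0.62 with a far wider spread than the other arrays.

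TSA was compared with no TSA in control siRNA cells. Of the 45 genes 19 were called lower with TSA, where 8.94% of all genes were, and 1, CKS2, was called higher, where 11.9% of all genes were. In either direction 20 members were called, or 44.4%, beside 20.9% of all genes. The median difference of the members was -0.47, beside -0.04 over all genes, and 41 of 45 were below 0. Without APE1 siRNA replicate 2, which is in neither group but enters the common spread, 31 were called lower and 2 higher, against 14.4% and 16.4% of all genes, or 30.8% in either direction. The groups of 3 arrays did not overlap for 39 of the 45 members, against 11704 of all 19775 genes.

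Of the genes called, FOXM1 had the largest fall. It is the transcription factor that drives late cell cycle genes. FOXM1 was 9.30, 9.43 and 9.44 on the control siRNA arrays and 8.27, 8.21 and 8.09 with TSA. The TSA arrays lay more than 1 log2 unit below every control array. The difference was -1.20 (SE 0.20, adjusted p = 0.00156), a 2.3-fold lower signal. MYBL2, which works with the MuvB complex, was lower by a difference of -0.48 (SE 0.10, adjusted p = 0.00506), so both transcription factors of the list fell.

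PLK1, the kinase of mitotic entry and of spindle assembly, was 7.34, 7.63 and 7.43 without TSA and 6.55, 6.44 and 6.504 with it. The groups were well apart and the difference was -0.97 (SE 0.14, adjusted p = 0.000766). AURKA, the kinase of centrosomes and spindle poles, was 10.44, 10.45 and 10.41 without and 9.72, 9.64 and 9.60 with TSA. Replicates within each group agreed closely, and the difference was -0.78 (SE 0.10, adjusted p = 0.000298). PLK4, which starts centriole duplication, gave -1.28 (SE 0.42) and was not called with all arrays (adjusted p = 0.0567), but was called without APE1 siRNA replicate 2 (adjusted p = 9.07e-07).

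Of the anaphase genes, UBE2C, the ubiquitin-conjugating enzyme of the anaphase-promoting complex, was 11.51, 11.46 and 11.52 without TSA and 10.68, 10.76 and 10.71 with it. No value overlapped and the difference was -0.78 (SE 0.07, adjusted p = 2.25e-05). ESPL1, the protease separase that cuts cohesin, fell by 0.56 (SE 0.08), and CDC20, the activator of the complex, fell by 0.50 (SE 0.09). PTTG1, the securin that inhibits separase, gave +0.68, and its call as higher came only without APE1 siRNA replicate 2 (adjusted p = 0.716 with it and 5.14e-07 without it).

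Among the genes of mitotic entry CCNA2, which encodes cyclin A, was called lower and CKS2, a small CDK-binding subunit, was called higher. CCNA2 was 9.45, 9.59 and 9.26 without and 8.65, 8.72 and 8.83 with TSA, a difference of -0.70 (SE 0.11, adjusted p = 0.00083). CKS2 was 12.085, 11.997 and 12.054 without and 12.41, 12.55 and 12.43 with TSA. The CKS2 groups separated in the opposite direction, with a difference of +0.42 (SE 0.06, adjusted p = 0.000632). CCNB1, cyclin B, was 10.998, 10.963 and 11.094 and then 10.58, 10.51 and 10.47 with TSA, which was called only without APE1 siRNA replicate 2 (difference -0.50, adjusted p = 0.0921 with it and 3.72e-05 without it).

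Of the kinetochore and centromere genes 4 of 6 were called lower: CENPA, the histone H3 variant of centromeres (-0.61, SE 0.10), NUF2 and SPC25 of the NDC80 complex (each -0.57, with SE 0.07 and 0.06), and CENPF (-0.34, SE 0.07). CENPE was 8.46, 8.52 and 8.55 without and 8.46, 8.40 and 8.50 with TSA, with overlapping groups. Of the checkpoint genes TTK (-0.58, SE 0.06) and BUB3 (-0.43, SE 0.06) were called lower, whereas BUB1 was 9.033, 9.056 and 9.002 and then 8.998, 8.906 and 8.995. INCENP, the scaffold of the chromosomal passenger complex, was lower by a difference of -0.47 (SE 0.08), TPX2, the activator of AURKA, by -0.67 (SE 0.10), DLGAP5 by -0.33 (SE 0.10), the kinesin KIF4A by -0.46 (SE 0.07) and TOP2A, the topoisomerase that untangles sister chromatids, by -0.42 (SE 0.06).

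Leaving out APE1 siRNA replicate 2 added 12 genes to the 19 called lower: PLK4, CCNB1, CCNB2, the phosphatase CDC25B, the checkpoint gene BUB1B, NDC80, the passenger kinase AURKB with its partner BIRC5 (survivin), the spindle pole gene ASPM, and the cytokinesis genes PRC1, KIF23 and ECT2. Their differences were -1.28 to -0.37, and each of these genes was lower on the array left out than on the other APE1 siRNA arrays, which widened the spread used to test them. AURKB, for example, was 9.48, 9.36 and 9.42 without and 8.68, 8.65 and 8.67 with TSA, and 9.32, 6.52 and 9.41 on the APE1 siRNA arrays. Its 2 groups did not overlap (difference -0.75, SE 0.60, adjusted p = 0.466 with all arrays, and SE 0.06, adjusted p = 3.27e-07 without that array).

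The genes called in neither direction, with or without that array, were 12 of the 45: CDK1, CDC25C, BUB1, MAD2L1, UBE2S, CENPE, NUSAP1, KIF11, KIF2C, HMMR, KIF20A and ANLN. For several of them the probe sets differed. CDK1, the kinase of mitotic entry, was 10.68, 10.87 and 10.75 without and 10.76, 10.67 and 10.77 with TSA at the probe set used, with overlapping groups and a difference of -0.03. At 2 other CDK1 probe sets the differences were -0.65 and -0.67 and both were called lower. In all, 7 members that were not called had another probe set that was called lower (BIRC5, CDK1, ECT2, HMMR, KIF2C, MAD2L1 and PLK4), and counting any probe set 26 members were lower. The share of all genes lower at any probe set was not counted, and the 8.94% above is for 1 probe set per gene. CCNA2 gave -1.63 at its second probe set, where it was also called, and CENPF gave no call and +0.12 and +0.23 at its other 2.

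The hybridization control spikes also differed between arrays with and without TSA. BioB was 7.35 to 7.91 on the 6 A549 arrays without TSA and 6.0 to 6.33 on the 6 with it, whereas BioC was 9.31 to 9.72 and 10.20 to 10.42, and CreX 13.08 to 13.34 and 13.72 to 13.87. The 3′ excess of ACTB was 0.13 to 0.35 on the control siRNA arrays and 0.54 to 0.87 with TSA, so those groups did not overlap in it either. Their part in the TSA result was not tested. The calls of DLGAP5 (adjusted p = 0.0475) and CENPF did not hold everywhere: DLGAP5 was lost when any of 9 other arrays was left out (differences -0.38 to -0.29) and CENPF when control siRNA replicate 2 was left out (-0.31).

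TSA was compared with no TSA in APE1 siRNA cells in the same way, on arrays that the comparison above does not share. Both tests use the common spread of the A549 arrays, so a gene that varied widely was hard to call in either. The overlap of their lists is therefore not independent. With all arrays 11 members were called lower and 2 higher, where 9.77% and 15.3% of all genes were (25.1% in either direction), and the median difference was -0.02, beside 0.01 over all genes. Without APE1 siRNA replicate 2, which is in the untreated group here, 22 were lower and 5 higher, against 16.0% and 17.2% of all genes (33.2% in either direction), with a median of -0.30. All 11 genes called lower (CCNA2, PLK1, AURKA, BUB3, TTK, UBE2C, CENPA, NUF2, TPX2, TOP2A and FOXM1) were among the 19 of control siRNA cells, or 57.9% of that list. Without the array, 21 genes were lower after either siRNA, which is 67.7% of the control siRNA list and 95.5% of the APE1 siRNA list, and no member was called in opposite directions. The share of all genes called lower in both comparisons was not counted.

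FOXM1 was 9.17, 8.30 and 9.20 after APE1 siRNA and 8.02, 7.88 and 8.03 with TSA. Replicate 2 was the low array of the untreated group and the groups still did not overlap. The difference was -0.92 (SE 0.20, adjusted p = 0.00694), and -1.21 (SE 0.08) without that array. PLK1 was 7.41, 6.87 and 7.44 and then 6.54, 6.52 and 6.33, a difference of -0.78 (SE 0.14, adjusted p = 0.00273). AURKA was 10.38, 9.98 and 10.37 and then 9.69, 9.56 and 9.63, a difference of -0.62 (SE 0.10, adjusted p = 0.00119). For both kinases the lowest untreated value was that of replicate 2, and without it the differences were -0.96 and -0.75.

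CKS2 was 11.88, 11.76 and 11.82 after APE1 siRNA and 12.51, 12.51 and 12.54 with TSA. It was higher on every TSA array, by +0.70 (SE 0.06, adjusted p = 1.75e-05). BUB1, the checkpoint kinase of kinetochores, was 9.10, 9.13 and 9.17 and then 9.53, 9.55 and 9.60, a rise of 0.42 (SE 0.05, adjusted p = 0.000248) at the probe set used. The 4 other BUB1 probe sets were not called, with differences from -1.05 to +0.16, and the average of all 5 was -0.1465. TOP2A was lower by a difference of -0.61 (SE 0.06), CENPA by -0.56 (SE 0.10), TPX2 by -0.52 (SE 0.10), CCNA2 by -0.47 (SE 0.11), BUB3 by -0.47 (SE 0.06), and UBE2C, NUF2 and TTK by -0.38, -0.38 and -0.36 (SE 0.07, 0.07 and 0.06). UBE2C lost its call when APE1 siRNA replicate 1 was left out (-0.32).

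Without APE1 siRNA replicate 2, the genes added as lower were CCNB2, CDC25B, PLK4, BUB1B, NDC80, SPC25, AURKB, KIF20A, KIF23, PRC1 and ECT2, and those added as higher were CDK1 (+0.42, SE 0.08), UBE2S, a ubiquitin-conjugating enzyme that extends chains on targets of the anaphase-promoting complex (+0.40, SE 0.07), and PTTG1 (+0.72, SE 0.06). With all arrays these 3 had differences of 1.63, 2.10 and 2.20 that were not called. The 4 CDK1 probe sets then ranged from -0.16 to +1.63, and none was called. The PTTG1 values were 11.66, 7.22 and 11.65 after APE1 siRNA and 12.34, 12.37 and 12.41 with TSA, so that the array left out set the size of the difference.

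**Figure D2:**
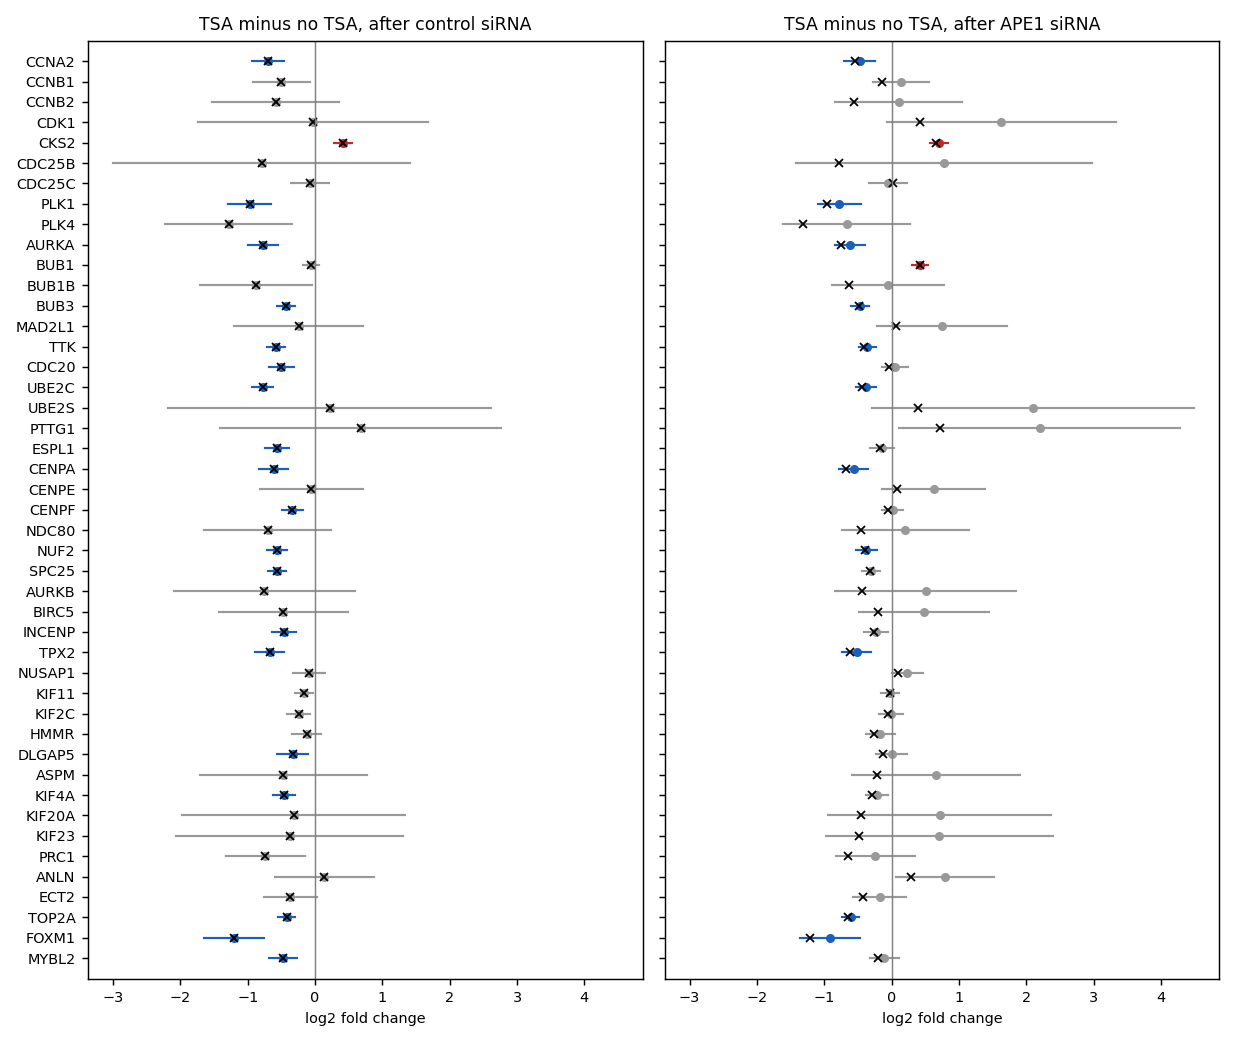
Log2 difference of TSA minus no TSA for the 45 genes, ordered by role, after control siRNA (left) and APE1 siRNA (right). Points with 95% confidence intervals are from all 12 A549 arrays, blue for genes called lower, red for genes called higher and grey for genes not called, and crosses give the difference without APE1 siRNA replicate 2. After control siRNA 19 genes are blue and 1 is red, and after APE1 siRNA 11 are blue and 2 are red.

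APE1 siRNA was compared with control siRNA in cells without TSA, on the same control arrays as the first TSA comparison. With all arrays 4 members were called lower and none higher, where 3.09% and 1.85% of all genes were (4.94% in either direction). At an unadjusted p under 0.05, 10 members were lower and 1 was higher, and the share of all genes at that cutoff was not counted. Without APE1 siRNA replicate 2, 5 were lower and 1 was higher, against 4.35% and 4.86% of all genes, or 9.21% in either direction. The genes lower both ways were CCNA2, TOP2A, CDC20 and UBE2C.

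CCNA2 was 9.45, 9.59 and 9.26 on the control arrays and 8.81, 8.59 and 8.77 on the APE1 siRNA arrays. All 3 siRNA arrays were lower, and the difference was -0.71 (SE 0.11, adjusted p = 0.00387) and without replicate 2 it was -0.64. Its second probe set was also called lower, with a difference of -1.18. TOP2A was 11.34, 11.34 and 11.32 and then 10.82, 10.72 and 10.88. The replicates of TOP2A were close and the difference was -0.53 (SE 0.06, adjusted p = 0.000515).

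CDC20 was 10.21, 10.03 and 10.16 on the control arrays and 9.68, 9.44 and 9.72 on the APE1 siRNA arrays, with no overlap and a difference of -0.52 (SE 0.09, adjusted p = 0.00742). UBE2C was 11.51, 11.46 and 11.52 and then 11.16, 10.92 and 11.07, a difference of -0.45 (SE 0.07, adjusted p = 0.00442). Replicate 2 was the lowest array for both genes, and without it their differences were -0.43 and -0.38. KIF20A, a kinesin of cytokinesis, was 8.67, 8.70 and 8.72 and then 8.24, 4.80 and 8.39, and was called only without replicate 2 (-0.38, SE 0.08, adjusted p = 0.00789). CDC25B was 11.22, 11.20 and 11.20 and then 11.71, 7.02 and 11.71, and was called higher only without it (+0.50, SE 0.06, adjusted p = 0.000196).

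The remaining genes did not pass the test. With all arrays the median difference of the 45 members was -0.43 and 38 were below 0, but without replicate 2 the median was -0.04 and 30 were below 0, beside a median of -0.03 and 0.00 over all genes. CDK1 was 10.66, 7.10 and 10.78 after APE1 siRNA, against 10.68 to 10.87 on the control arrays, so its difference of -1.25 rests on replicate 2. PLK1 gave -0.22 with all arrays and -0.04 without it, AURKA -0.18 and -0.05, AURKB -1.0 and -0.05, and FOXM1 -0.50 and -0.20. CCNB1 gave -0.57 and -0.30, and BUB1 gave +0.10 both ways. The quality of the RNA on that array moves with these values and its part in them was not tested. After a further quantile normalization of all arrays none of the 4 genes was called, and TOP2A, for example, gave -0.11. With replicate 2 left out of that normalization all 4 were called again, among 5 members lower and 1 higher.

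**Figure D3:**
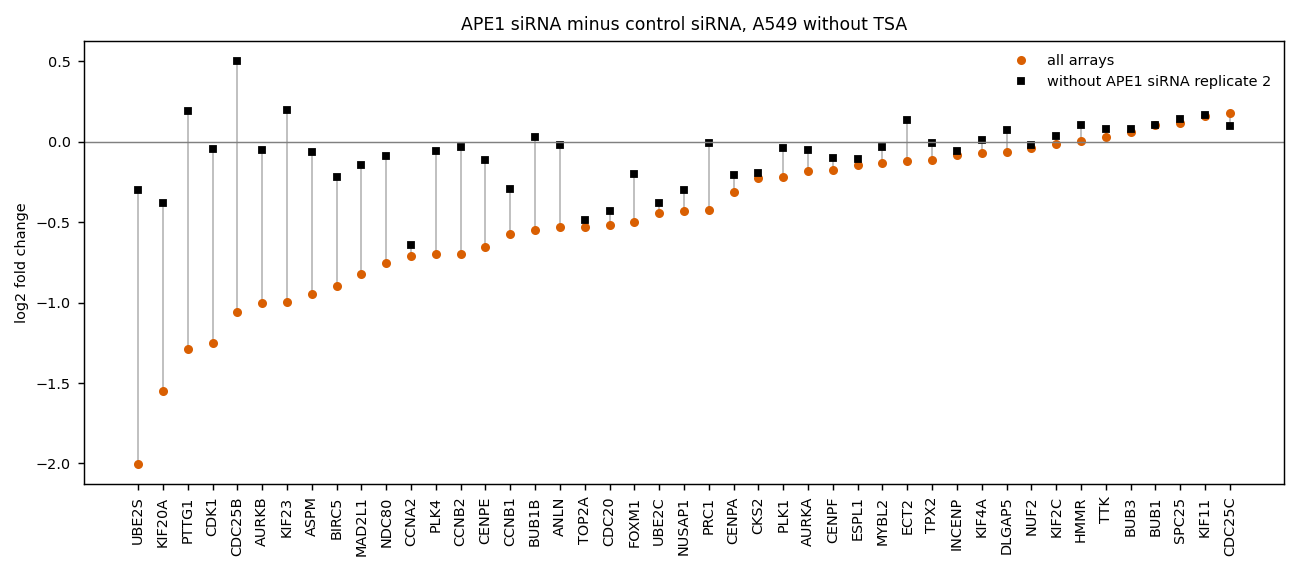
Log2 difference of APE1 siRNA minus control siRNA without TSA for each of the 45 genes (x axis, ordered by the difference). Orange circles use all arrays and black squares leave out APE1 siRNA replicate 2, with grey lines joining the pair. The median moves from -0.43 to -0.04, whereas CCNA2, TOP2A, CDC20 and UBE2C stay at -0.38 or lower either way.

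With TSA, APE1 siRNA was compared with control siRNA on arrays that do not include replicate 2 of the untreated group, which enters only the common spread. Here 2 members were called lower and 2 higher, where 3.37% and 1.91% of all genes were (5.28% in either direction), with a median difference of 0.09 beside 0.02 over all genes. Without that array 3 were lower and 4 higher, against 6.42% and 4.19% of all genes, or 10.6% in either direction. TOP2A and CCNA2 were lower both without and with TSA.

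TOP2A was 10.95, 10.91 and 10.89 in control siRNA cells with TSA and 10.22, 10.19 and 10.17 in APE1 siRNA cells with TSA. These groups were far apart for so narrow a spread, and the difference was -0.72 (SE 0.06, adjusted p = 6.18e-05). CCNA2 was 8.65, 8.72 and 8.83 and then 8.39, 8.25 and 8.11, a difference of -0.48 (SE 0.11, adjusted p = 0.028). The call of CCNA2 at this probe set was lost when control siRNA replicate 1, any of the control siRNA arrays with TSA, or APE1 siRNA replicate 2 or 3 with TSA was left out (differences -0.53 to -0.41), and its second probe set gave -1.04. A further quantile normalization of all arrays left no member called in this comparison either, with TOP2A at -0.67. With the untreated APE1 siRNA replicate 2 left out of it, 3 members were lower and 5 higher, among them the 4 called above.

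BUB1 was 8.998, 8.906 and 8.995 in control siRNA cells with TSA and 9.53, 9.55 and 9.60 in APE1 siRNA cells with TSA. It was higher on all 3 arrays, by 0.59 (SE 0.05, adjusted p = 0.000161), although its 4 other probe sets were not called. SPC25 was 8.27, 8.21 and 8.34 and then 8.64, 8.69 and 8.62, a difference of +0.38 (SE 0.06, adjusted p = 0.00497). CDC20, lower after APE1 siRNA without TSA, was 9.64, 9.61 and 9.66 and then 9.66, 9.59 and 9.76, with overlapping groups. Without the untreated replicate 2 array KIF20A was also lower (-0.52, SE 0.07), and CDC25B (+0.51, SE 0.06) and CDK1 (+0.41, SE 0.07) were also higher. The 4 CDK1 probe sets ranged from +0.11 to +0.41.

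**Figure D4:**
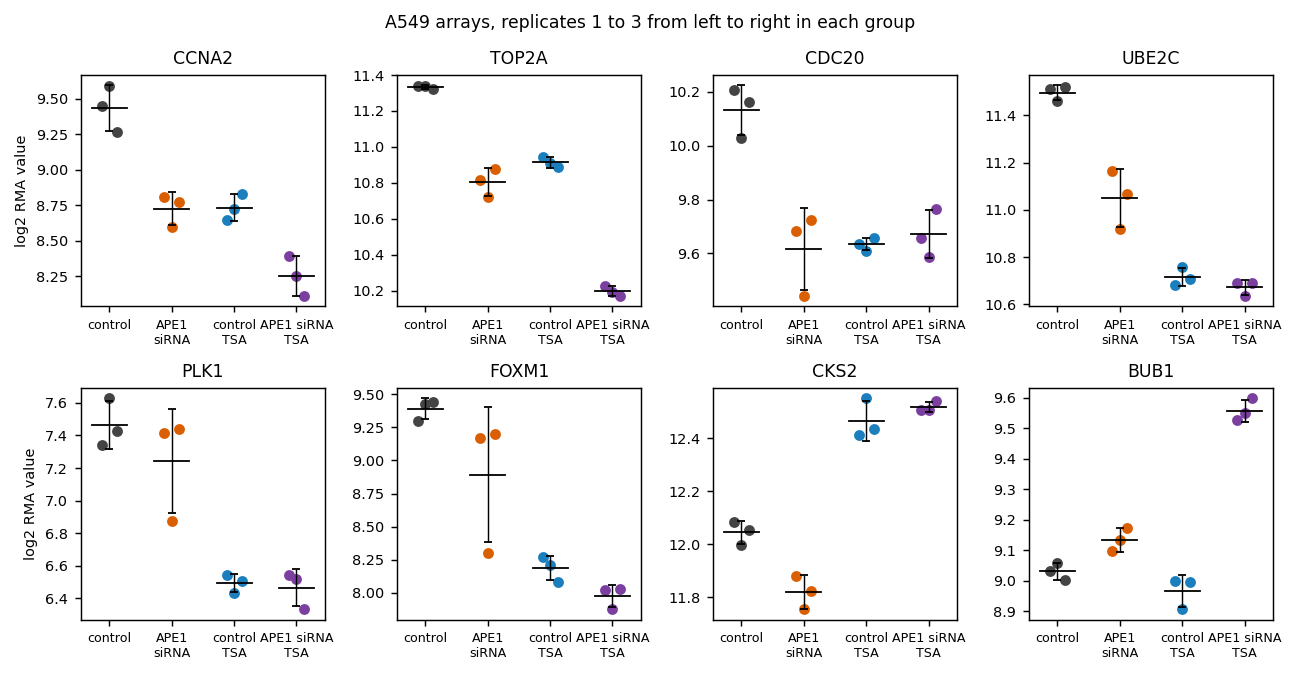
Log2 values of 8 genes on the 12 A549 arrays, with points for replicates 1 to 3 from left to right, bars for the group mean and error bars for 1 SD (n = 3). The y axes differ between genes and do not start at 0. CCNA2 and TOP2A are lower with APE1 siRNA and with TSA, CKS2 is higher with TSA, and BUB1 is highest, at 9.53 to 9.60, with both.

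Whether the APE1 siRNA effect differed with TSA was tested by the interaction of the 2 treatments. No member was called, where 0.121% of all genes were (0.0202% with a positive and 0.101% with a negative value). At an unadjusted p under 0.05 there were 13 members, 12 of them positive, and the share of all genes at that cutoff was not counted. The median of the members was 0.37 with all arrays, beside 0.06 over all genes. Without APE1 siRNA replicate 2 it was 0.17, beside 0.01. BUB1 gave 0.49 (SE 0.08, adjusted p = 0.0777) and CDC20 0.55 (SE 0.12, adjusted p = 0.237). Without APE1 siRNA replicate 2, CDK1, BUB1 and CDC20 were called with positive values, against 0.405% of all genes, and none with a negative value, against 1.40% (1.81% for either sign).

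In BEAS-2B cells RR was compared with WT. Here 4 members were called lower and 6 higher, where 11.9% and 14.1% of all genes were, so the share of members called, 22.2%, was no higher than the 26.0% of all genes. The median difference was 0.09, beside -0.01 over all genes. A further quantile normalization gave 8 lower and 3 higher, and centring each array on its median gave 3 lower and 9 higher, so the balance of directions depends on the scaling. Cell type markers also differed between the groups: the group means for WT, RR and ND42 were 11.79, 12.86 and 12.96 for COL1A1, 6.97, 7.90 and 7.80 for PDGFRB, and 5.54, 6.70 and 6.61 for the epithelial gene CDH1. Of the other fibroblast genes COL1A2 was 5.96, 6.39 and 6.44, COL3A1 4.76, 4.84 and 4.85, and DCN 6.54, 6.19 and 6.40. Of the other epithelial genes KRT18 was higher with both mutants, at 11.545, 11.597 and 11.547. The rest were lower with both: KRT8 was 10.41, 10.301 and 10.3004, KRT19 5.29, 4.99 and 5.004, and EPCAM 5.603, 5.42 and 5.497. Their part in the results of the mutants was not tested.

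The genes lower with RR were PLK1, CDC20, CCNB1 and INCENP. PLK1 was 7.15, 7.15 and 7.06 with WT and 6.65, 6.73 and 6.49 with RR. All RR arrays lay below all WT arrays, with a difference of -0.50 (SE 0.07, adjusted p = 0.000373). CDC20 was 10.19, 10.33 and 10.24 and then 9.81, 9.83 and 9.64, a difference of -0.49 (SE 0.07, adjusted p = 0.000544). CCNB1 gave -0.45 (SE 0.06) and INCENP -0.33 (SE 0.08), and the call of INCENP was lost without WT replicate 3 (-0.27) or RR replicate 3 (-0.26).

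The genes higher with RR were NUSAP1, CDK1, MYBL2, TOP2A, CDC25C and KIF11. NUSAP1, which bundles spindle microtubules, was 11.69, 11.66 and 11.58 with WT and 12.11, 12.11 and 12.22 with RR. The groups were apart by more than their spread, with a difference of +0.51 (SE 0.06, adjusted p = 0.000133). CDK1 was 11.58, 11.54 and 11.32 and then 11.91, 11.95 and 12.03, a difference of +0.48 (SE 0.07, adjusted p = 0.000696). MYBL2 gave +0.43 (SE 0.09), TOP2A +0.42 (SE 0.12), the phosphatase CDC25C +0.38 (SE 0.05) and KIF11, the kinesin that pushes spindle poles apart, +0.34 (SE 0.06). Of the 3 CDC25C probe sets only the 1 used was called, and their differences ranged from -0.32 to +0.38. TOP2A and KIF11 lost their calls without WT replicate 3 (+0.28 and +0.30) or RR replicate 1 (+0.32 and +0.32), and TOP2A also without RR replicate 2 (+0.43).

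ND42 was compared with the same WT arrays. Here 5 members were called lower and 3 higher, where 7.50% and 10.3% of all genes were, and 17.8% of members were called, as were 17.8% of all genes. A further quantile normalization gave 7 lower and 3 higher and centring gave 5 lower and 6 higher. The median difference was 0.04.

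CDC20 was 9.71, 9.57 and 9.57 with ND42, below all WT values, with a difference of -0.63 (SE 0.07, adjusted p = 0.000154). CDK1 was 11.97, 11.92 and 11.93, above all WT values, with a difference of +0.46 (SE 0.07, adjusted p = 0.00117). CCNB1 was 11.72, 11.62 and 11.71 with WT and 11.18, 11.18 and 11.32 with ND42, a difference of -0.46 (SE 0.06, adjusted p = 0.000303). PLK1 was 6.64, 6.73 and 6.69, a difference of -0.43 (SE 0.07, adjusted p = 0.00109), so cyclin B and its kinase CDK1 were called in opposite directions with this mutant as with RR.

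The kinetochore motor CENPE (-0.40, SE 0.06) and CENPF (-0.35, SE 0.08) were also lower, and NUSAP1 (+0.38, SE 0.06) and MYBL2 (+0.41, SE 0.09) higher with ND42. CENPF lost its call without ND42 replicate 2 (-0.27), and MYBL2 without WT replicate 3 (+0.31) or ND42 replicate 1 (+0.37). AURKA, at the probe set used, was 10.96, 11.04 and 10.88 with WT, 10.69 on all RR arrays and 10.58 to 10.68 with ND42. Its adjusted p passed in both comparisons (0.00428 and 0.00239) while its differences of -0.27 and -0.32 fell short of the minimum fold. Its 2 other probe sets were called lower with both mutants, with differences of -0.41 and -0.35 with RR and of -0.51 and -0.36 with ND42. AURKB (+0.24 with RR and +0.18 with ND42), CCNA2 (+0.10 and +0.17), FOXM1 (+0.10 and +0.02) and BUB1 (+0.02 and -0.02) were not called at the probe set used. With RR the 5 BUB1 probe sets ranged from -0.38 to +0.02, and 1 of them was called lower. Another probe set of PLK4 was called higher with RR. With ND42, 2 other probe sets of BUB3 were called lower and 1 of TOP2A higher.

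RR and ND42 share their WT arrays, so their differences from WT are not independent, and the mutants were compared directly. No member was called between ND42 and RR, and no gene of all 19775 was (0%). At an unadjusted p under 0.05 there were 3 members: CENPA (+0.16), INCENP (+0.23) and NUSAP1 (-0.13). The share of all genes at that cutoff was not counted. The 95% intervals of ND42 minus RR were -0.30 to 0.01 for CDC20, -0.08 to 0.21 for PLK1, -0.13 to 0.12 for CCNB1 and -0.18 to 0.14 for CDK1.

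**Figure D5:**
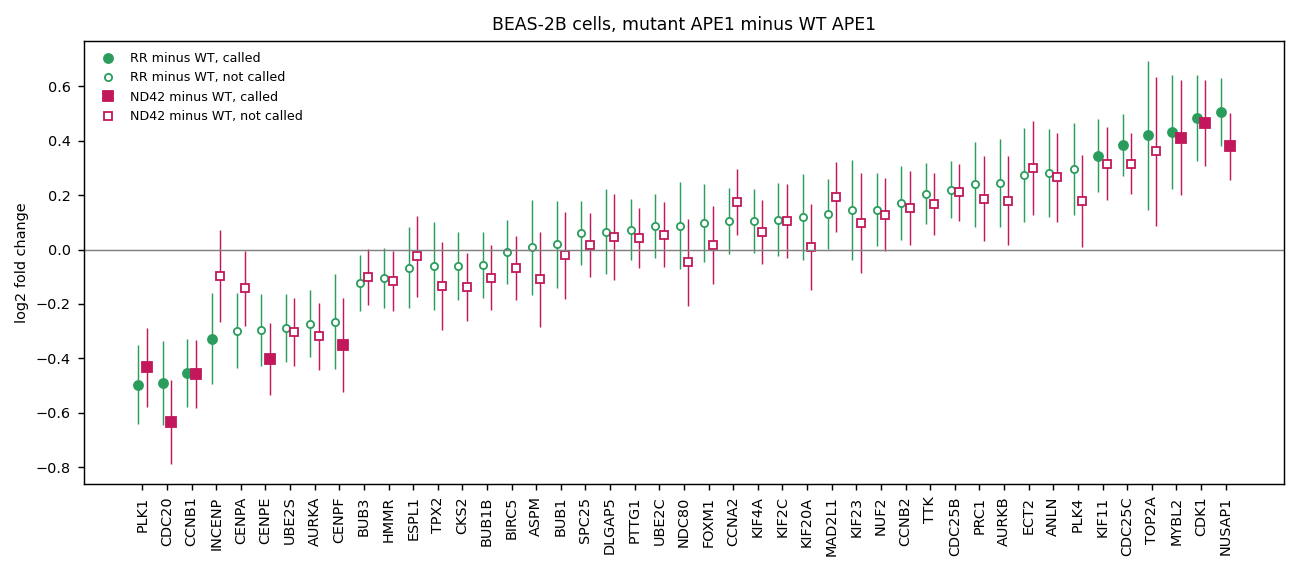
Log2 difference from WT in BEAS-2B cells for the 45 genes (x axis, ordered by the RR difference), with 95% confidence intervals, for RR (green circles) and ND42 (magenta squares), both against the same 3 WT arrays. Filled symbols are called genes. PLK1, CDC20 and CCNB1 lie at -0.43 or lower, and NUSAP1, MYBL2 and CDK1 at +0.38 or higher, with both mutants.

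A list of other mitosis genes gives the surroundings. Of its 81 genes, 79 were found on the arrays, among them condensin, cohesin and further kinetochore, spindle and entry genes. With TSA in control siRNA cells 23 of the 79 were called lower and 6 higher, with a median difference of -0.20, where 8.94% and 11.9% of all genes were called. Without APE1 siRNA replicate 2 the counts were 33 and 12, against 14.4% and 16.4%. The largest falls were of NCAPH, a condensin subunit (-1.02, SE 0.11), the kinetochore gene SKA1 (-0.87, SE 0.09), the phosphatase CDC25A (-0.86, SE 0.23) and the cohesin regulator CDCA5 (-0.86, SE 0.20). In APE1 siRNA cells with TSA 13 were lower and 13 higher, against 9.77% and 15.3% of all genes, and without that array 27 and 15, against 16.0% and 17.2%.

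With APE1 siRNA without TSA, 2 of the 79 were called with all arrays, both lower, against 3.09% of all genes: CEP55, which recruits the abscission machinery (-0.90, SE 0.07), and the passenger complex gene CDCA8 (-0.46, SE 0.10). Without replicate 2, 3 were lower and 1 was higher, against 4.35% and 4.86%. With TSA, CEP55 was lower (-0.63, SE 0.07) and CENPU, a kinetochore gene, was higher (+0.38, SE 0.05), against 3.37% and 1.91% of all genes, and without the untreated replicate 2 array 3 were lower and 6 higher, against 6.42% and 4.19%. In BEAS-2B cells 9 were lower and 18 higher with RR, where 11.9% and 14.1% of all genes were. With ND42 9 were lower and 11 higher, where 7.50% and 10.3% of all genes were. DSN1 of the kinetochore (+0.68 and +0.66, SE 0.05 each) and FBXO5, an inhibitor of the anaphase-promoting complex (+0.61 and +0.62, SE 0.07 each), were among the 4 with the largest differences in both.

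Across the 8 comparisons 18 of the 45 members were never called with all arrays: CCNB2, CDC25B, PLK4, BUB1B, MAD2L1, UBE2S, PTTG1, NDC80, AURKB, BIRC5, KIF2C, HMMR, ASPM, KIF20A, KIF23, PRC1, ANLN and ECT2. The share of all genes never called was not counted. With all arrays, CCNA2 and TOP2A were each called lower in all 4 A549 comparisons of groups. These comparisons share arrays and are not independent, and the share of all genes lower in all 4 was not counted. CCNA2 was called at both of its probe sets each time, but TOP2A at only 1 of its 3. The TOP2A probe sets ranged from -1.21 to +0.02 for APE1 siRNA without TSA and from -1.37 to -0.21 with TSA. For TSA against no TSA they ranged from -0.54 to +0.29 after control siRNA and from -0.71 to +0.06 after APE1 siRNA. CDC20 and PLK1 were the members called lower in both cell lines together with CENPF and INCENP, and TOP2A, lower in A549 cells, was higher with RR in BEAS-2B cells, as was MYBL2. Shares of all genes called in both lines were not counted.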

How the data were processed

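Expression was measured on 21 Affymetrix HG-U133 Plus 2.0 arrays. The authors processed the scans with affy, using RMA background correction and quantile normalization, and the deposited values are log2 values per probe set, normalized separately for A549 and BEAS-2B cells. Versions of the authors' tools: not given in the sources used here. Deposited tables of the authors' own comparisons, with fold changes and p-values, were not used.

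The 45 members, their roles and the list of other mitosis genes were chosen with earlier results of these data known. The 62 control probe sets were left out. The other 54613 were fitted with limma 3.58.1 in R 4.3.3 (lmFit and eBayes, 1 mean per group), over the 12 A549 arrays or the 9 BEAS-2B arrays, and p-values were adjusted over all of them by the Benjamini-Hochberg method. Calls required a minimum fold of 1.25 besides an adjusted p below 0.05. Of these probe sets, 41091 had 1 gene symbol, 1801 several and 11721 none, and symbols were updated through RefSeq of GRCh38.p14. A gene was read at its 1-symbol probe set with the highest mean, and 42 of the 45 members used the same probe set in both lines. Members have 87 such probe sets, and 22 members have several. The steps were tested on simulated data.

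Called members were named, with array values for up to 4 per comparison by size of difference, beside 10 genes named in any case. The labels call the replicates separate samples and the methods call them biological; the precision is limited by 3 arrays per group. Replicate numbers were not taken as a pairing. Within-group residuals of like-numbered arrays had correlations from -0.08 to 0.26 in A549 cells (18 pairs) and -0.03 to 0.20 in BEAS-2B cells (9 pairs). Arrays with unlike numbers were not correlated, so these values have no reference and do not decide whether the numbers pair arrays. The alternatives were a replicate block, quantile normalization once more, median centring, a minimum mean log2 of 6, trended and robust eBayes, array weights, averaging the probe sets of each gene, fits of only the groups compared, an adjusted p under 0.01, no minimum fold, and each array left out in turn. A search for motifs in the proteins was planned and not run, since protein sequences were not used here.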

Additional observations from a re-analysis of the deposited data

Results flagged for a closer look

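With the array of A549 APE1 siRNA replicate 2 left out, the effect of APE1 siRNA differed between cells with and without TSA for 3 of the 45 genes, by limma's test of the interaction. CDK1 gave an interaction of 0.46 (SE 0.10, adjusted p = 0.0478). BUB1 gave 0.49 (SE 0.09, adjusted p = 0.0156), and CDC20 gave 0.47 (SE 0.10, adjusted p = 0.0404). Of all 19775 genes, 0.405% were called with a positive interaction in that fit. With all arrays none of the 3 was called: the values were 1.66 for CDK1, 0.49 for BUB1 and 0.55 for CDC20, with adjusted p of 0.801, 0.0777 and 0.237. The 4 other probe sets of BUB1 were not called: their interactions were 0.06 to 0.17 without that array, and with all arrays they were -0.93 to 0.24. With all arrays the 4 probe sets of CDK1 gave interactions of 0.20 to 1.66, and none was called.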

How the results depend on the processing

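Left out 1 at a time, arrays gave 4 to 6 called members for APE1 siRNA without TSA (4 with all arrays), 3 to 7 for APE1 siRNA with TSA (4), 18 to 33 for TSA in control siRNA cells (20), 12 to 27 for TSA in APE1 siRNA cells (13), 0 to 3 for the interaction (0), 7 to 13 for RR (10), 8 to 11 for ND42 (8) and 0 to 0 for ND42 against RR. The highest counts in A549 cells came without APE1 siRNA replicate 2, and apart from that array TSA gave 18 to 21 and 12 to 14. A further quantile normalization gave 0, 0 and 12 for the first 3 of these comparisons. With that array left out as well it gave 6 and 8 for APE1 siRNA without and with TSA. It then gave 34 and 26 for TSA in control and APE1 siRNA cells, and 3 for the interaction. Array weights gave 7 for APE1 siRNA without TSA, 33 and 26 for TSA, and 2 for the interaction. Fits of only the groups compared gave 1, 7 and 33 for the first 3. Averaging the probe sets of each gene gave 2 for APE1 siRNA with TSA, a minimum mean log2 of 6 gave 1 for the interaction, and dropping the minimum fold gave 22 for RR and 18 for ND42, since it admits smaller differences. In the other cases the cause was not tested.

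With the replicate number as a block, which the main fits did not use, the counts were 4, 3, 20, 13, 0, 10, 9 and 0 in the same order. For the called genes, 1088 of the alternative values kept their direction and call and 77 lost the call. The direction turned in 2, both when the probe sets of each gene were averaged: CENPF with TSA in control siRNA cells (0.0039, adjusted p = 0.983) and BUB1 with TSA in APE1 siRNA cells (-0.1465, adjusted p = 0.441). Brightness above background limits the dim probe sets, and the files hold no detection calls.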
